A study of Mus musculus with 13 samples.

Results

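The transcripts of the Apoe cluster and of the related carrier proteins clusterin and apolipoprotein D were examined in myeloid cells sorted from the brains of mice with and without Trem2. The 6 genes, Apoe, Apoc1, Apoc2, Apoc4, Clu and Apod, were chosen by name and matched to Ensembl identifiers, out of 52636 genes in the count tables. Cells came from the cortex and hippocampus of mice aged 14 to 15 months, all of which were homozygous for the PS2APP transgenes (human presenilin 2 and amyloid precursor protein with familial Alzheimer's disease mutations) and develop β-amyloid plaques. The 7 PS2APP;Trem2wt mice (5 females and 2 males, labelled PS2APP) had both copies of Trem2, and the 6 PS2APP;Trem2ko mice (5 females and 1 male, labelled PS2APP;Trem2KO) carried 2 copies of the Trem2 tm1(KOMP)Vlcg null allele. That allele was made on a C57BL/6N background and the transgenic line on C57BL/6J, and the deletion is in the germ line, so it is not limited to myeloid cells. Live cells were gated as CD11b+CD45+Ccr2-Ly6g-, a population made up mostly of microglia that also holds perivascular macrophages. Each mouse was 1 replicate.

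Apolipoproteins wrap lipids into particles that can leave one cell and be taken up by another. In the brain, ApoE is made mainly by astrocytes and, in plaque-bearing tissue, strongly by microglia. It is loaded with cholesterol and phospholipid by ABC transporters, and it is taken up by a family of lipoprotein receptors on the cell surface. Clusterin is another abundant lipid-carrying glycoprotein that binds misfolded proteins, and it is known chiefly from astrocytes. Apolipoprotein D is a small carrier of the lipocalin family, known from glia, fibroblasts and pericytes. ApoC1, ApoC2 and ApoC4 are small exchangeable apolipoproteins, of which ApoC2 is the cofactor of lipoprotein lipase. The human counterparts of Apoe and Clu lie at loci linked to Alzheimer's disease risk, and Trem2 is a microglial receptor that binds lipids and lipoproteins.

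The libraries of PS2APP;Trem2wt mice held 26120961 to 114857155 counts (median 35201380), and those of PS2APP;Trem2ko mice held 41567025 to 120569609 (median 55371726). Values per mouse are given as nRPKM, the authors' size-factor-adjusted reads per kilobase. Comparison between genes depends on the gene lengths that the authors used. Trem2 itself was at 818 to 1244 nRPKM in PS2APP;Trem2wt mice and at 0.393 to 2.29 in PS2APP;Trem2ko mice. The summed CPM (counts scaled by the library total) of 9 microglia markers were between 55597 and 65878 in every mouse. The PS2APP;Trem2wt replicate 2, a male with the smallest library, had the highest sums for monocyte and neutrophil, oligodendrocyte, endothelial, and mural cell and fibroblast markers. The genotypes were compared on counts with edgeR's quasi-likelihood test over the 17086 genes that passed its expression filter, with Benjamini-Hochberg adjustment over all of them, and a gene is called where the adjusted p was 0.05 or less. By this rule 2.04% of tested genes were called, 1.53% lower and 0.503% higher in PS2APP;Trem2ko mice.

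Of the 6 genes, 5 passed the filter and 1 was called, Apoc4, which was lower in PS2APP;Trem2ko mice. Apoe, Apoc1, Clu and Apod had overlapping levels in the genotypes, and Apoc2 was at or near 0 counts throughout. In bulk libraries, fewer cells of a type and less RNA per cell cannot be told apart.

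Of the 6 genes, 4 lie in 1 cluster on the minus strand of chromosome 7 (GRCm38, GENCODE M21). In the direction of transcription the order is Apoe (ENSMUSG00000002985, chr7:19696109-19699188), Apoc1 (ENSMUSG00000040564, chr7:19689481-19692660), Apoc4 (ENSMUSG00000074336, chr7:19678083-19681479) and Apoc2 (ENSMUSG00000002992, chr7:19671579-19677941). The gap is 3448 bases between Apoe and Apoc1 and 8001 bases between Apoc1 and Apoc4. A further annotated gene, Gm44805, spans both Apoc4 and Apoc2 on the same strand. Clu (ENSMUSG00000022037, chr14:65968483-65981547, plus strand) and Apod (ENSMUSG00000022548, chr16:31296192-31314808, minus strand) are elsewhere.

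The start regions of Apoe, Apoc4 and Apoc2 are shown because neighbours a few kilobases apart had such unequal levels, with Apoe far above the rest. Whether these sequences bear on the levels was not tested. Each region is 250 bases before to 50 bases after the annotated start, from RefSeq on GRCm38.p6, minus strand, written 5′ to 3′. Of the 6 genes, 4 had an entry, and Apoc1 and Clu had none. Apoe has 3 annotated starts, of which the one farthest upstream is given. Capitals mark matches to 5 short motifs searched on both strands: a TATA box (TATAAA), a GC box (GGGCGG), a PU.1 core (GAGGAA), an E-box (CACGTG) and a nuclear receptor half-site (AGGTCA).
Apoe, chr7:19699139-19699438: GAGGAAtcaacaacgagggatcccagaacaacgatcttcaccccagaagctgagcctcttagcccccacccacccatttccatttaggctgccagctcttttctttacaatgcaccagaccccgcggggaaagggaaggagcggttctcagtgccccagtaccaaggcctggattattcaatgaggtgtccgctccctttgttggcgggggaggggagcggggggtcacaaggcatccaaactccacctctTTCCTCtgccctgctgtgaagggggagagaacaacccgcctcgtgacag
Apoc4, chr7:19681411-19681710: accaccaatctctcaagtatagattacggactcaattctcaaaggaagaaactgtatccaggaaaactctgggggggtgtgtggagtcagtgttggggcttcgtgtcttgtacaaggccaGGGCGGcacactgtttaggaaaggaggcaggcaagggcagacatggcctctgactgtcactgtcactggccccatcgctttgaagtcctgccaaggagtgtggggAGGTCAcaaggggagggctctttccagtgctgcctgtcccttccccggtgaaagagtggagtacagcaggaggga
Apoc2, chr7:19677892-19678191: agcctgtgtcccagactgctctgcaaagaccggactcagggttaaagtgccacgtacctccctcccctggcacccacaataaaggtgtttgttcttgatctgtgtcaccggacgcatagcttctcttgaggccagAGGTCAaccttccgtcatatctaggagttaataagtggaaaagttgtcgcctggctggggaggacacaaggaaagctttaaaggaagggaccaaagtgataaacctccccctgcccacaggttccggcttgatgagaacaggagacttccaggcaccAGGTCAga

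The Apoe window holds 2 matches to the PU.1 core, 1 on each strand, and none of the other 4 motifs. Of the windows at the other two Apoe starts, the next downstream holds 2 overlapping TATA box matches, 1 on each strand, and no PU.1 core, and the last holds 1 PU.1 core and no TATA box. The Apoc4 window holds 1 GC box and 1 half-site, and the Apoc2 window holds 2 half-sites. Among 32851 RefSeq promoter windows of this length, 28.3% hold the PU.1 core letters, 13.6% the TATA box, 35.7% the GC box and 16.3% the half-site. The matches are descriptions of letters and not of bound sites.

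Apoe was the highest of the 6 genes in all 13 mice, and by mean nRPKM it was at rank 6 of all genes. In PS2APP;Trem2wt mice its nRPKM was 2896 at the lowest, 3451 at the median and 6413 at the highest, and in PS2APP;Trem2ko mice it was 2497, 3385 and 3954. Replicates 3 and 5 of PS2APP;Trem2wt, at 6413 and 5084, were above every PS2APP;Trem2ko mouse, while the other 5 PS2APP;Trem2wt mice lay between 2896 and 3489, inside the PS2APP;Trem2ko range. The means were 4013 ± 1262 (SD, n = 7) and 3305 ± 572 (SD, n = 6). In edgeR the genotypes differed by -0.28 on the log2 scale (SE 0.17, adjusted p = 0.480), with a 95% interval of the fold from 0.638 to 1.06.

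The transcript of Apoe made up most of what was read from the whole group. Together the 6 genes took 1.03% ± 0.27 (SD, n = 7) of all counts in PS2APP;Trem2wt mice and 0.886% ± 0.156 (SD, n = 6) in PS2APP;Trem2ko mice, and Apoe held over 99% of these in every mouse. The log2 difference of the share was -0.20 (p = 0.288, two-sided exact permutation test over 1716 splits of the mice). The share was lowest at 0.655% and highest at 1.53%, in a PS2APP;Trem2ko and a PS2APP;Trem2wt mouse.

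**Figure D1:**
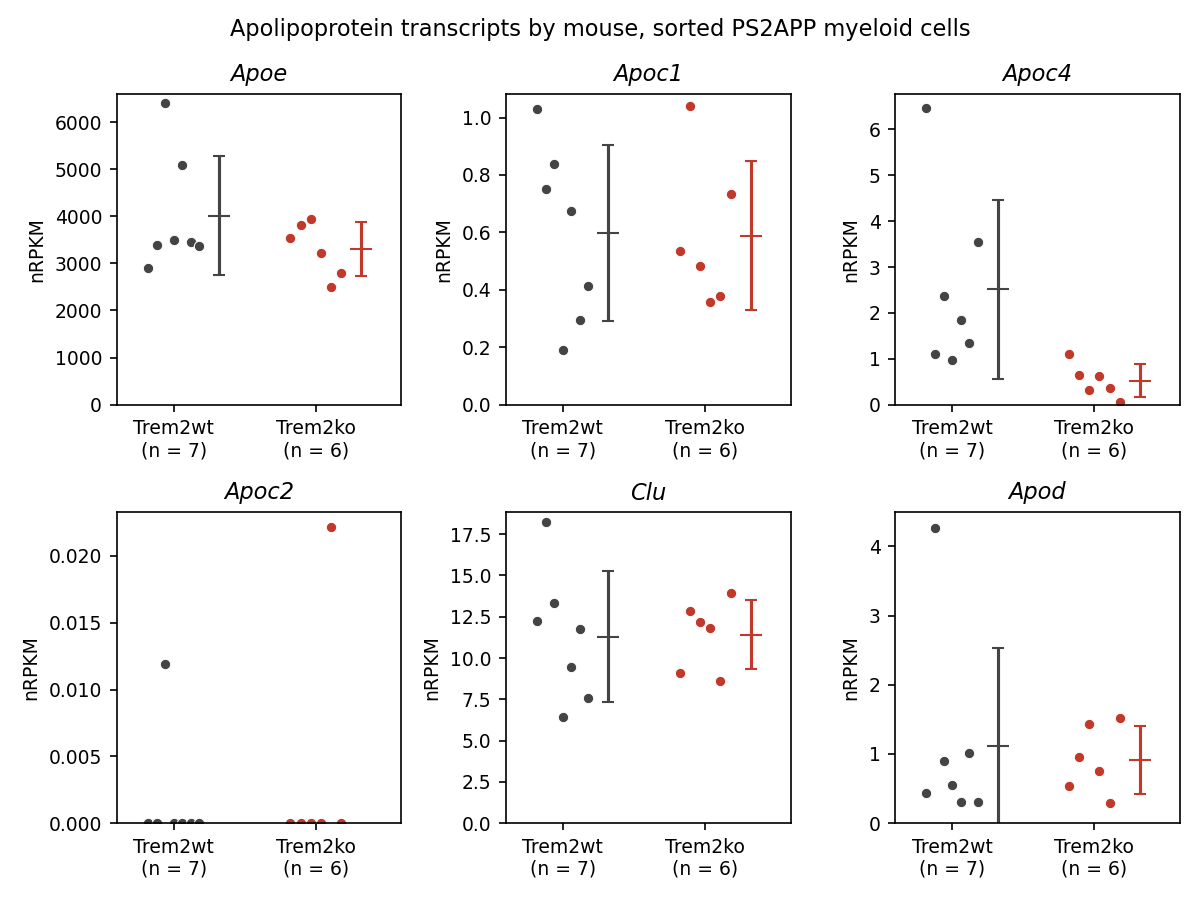
Level of each of the 6 genes as nRPKM (linear axes from 0, a different range for each gene), with 1 point per mouse, grey for the 7 PS2APP;Trem2wt and red for the 6 PS2APP;Trem2ko mice. Bars give the mean and SD, cut at 0 and left out for Apoc2, which had counts in only 2 mice. Apoc4 sits at 0.972 or above in PS2APP;Trem2wt mice and at 1.11 or below in PS2APP;Trem2ko mice. Its only overlap is PS2APP;Trem2ko replicate 1, which is above PS2APP;Trem2wt replicate 4. The points of the other genes overlap more widely.

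Apoc4, which codes for a minor apolipoprotein of triglyceride-rich particles, was lower in PS2APP;Trem2ko mice. In PS2APP;Trem2wt replicates 1 to 7 its nRPKM was 6.46, 1.109, 2.36, 0.972, 1.85, 1.34 and 3.54. In PS2APP;Trem2ko replicates 1 to 6 it was 1.105, 0.639, 0.310, 0.628, 0.369 and 0.0582. All PS2APP;Trem2ko mice but replicate 1 were below the lowest PS2APP;Trem2wt mouse, and replicate 1 was above PS2APP;Trem2wt replicate 4 only. These levels rest on 20 to 308 counts per PS2APP;Trem2wt mouse and 2 to 106 per PS2APP;Trem2ko mouse, so Apoc4 is a rare transcript in both genotypes. Its mean fell from 2.52 ± 1.95 (SD, n = 7) to 0.518 ± 0.360 (SD, n = 6). EdgeR put its log2 fold change at -2.26 (SE 0.55, adjusted p = 0.0462), a 4.78-fold lower level, with a 95% interval of the log2 fold change from -3.43 to -1.08.

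The call for Apoc4 lies close to the threshold. With each mouse left out in turn, its edgeR log2 fold change stayed between -2.63 and -1.84, but the adjusted p was 0.05 or less in only 3 of 13 fits, those without PS2APP;Trem2ko replicate 1, PS2APP;Trem2wt replicate 2 or PS2APP;Trem2wt replicate 4, and ranged from 0.0370 to 0.0963. Among the 10 females alone the log2 fold change was -2.20 (adjusted p = 0.125 from edgeR), with sex as a covariate -2.30 (adjusted p = 0.0549) and with no expression filter -2.25 (adjusted p = 0.0526). Of its 50-base transcript words in GENCODE M21, 8.64% also occur in another gene, chiefly the overlapping Gm44805, which was at 0 counts in every mouse. Of the Gm44805 words, 87.9% are shared, chiefly with Apoc2 and Apoc4. How reads in shared stretches were counted is not given, so these 0 counts cannot tell whether Gm44805 reads reached Apoc4.

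The ratio of Apoc4 to Apoe, taken in each mouse, was lower in PS2APP;Trem2ko mice. It reuses the Apoc4 counts tested above and is not separate evidence for the call. Its p-values are adjusted over the ratios only, not over all 17086 tested genes. Per 100000 Apoe counts, Apoc4 had between 8.16 and 65.3 counts in PS2APP;Trem2wt mice and between 0.607 and 9.14 in PS2APP;Trem2ko mice. Replicate 1 of PS2APP;Trem2wt was the highest at 65.3, and the ranges overlapped between 8.16 and 9.14 only. The log2 ratio of Apoc4 to Apoe differed by -2.18 between the genotypes (p = 0.00117, adjusted p = 0.00466 over the 4 ratios tested, two-sided exact permutation test), and the adjusted p stayed between 0.00505 and 0.0253 with each mouse left out. In females the difference was -2.19 with an adjusted p of 0.0635 from the same exact permutation test. The ratios of Apoc1, Clu and Apod to Apoe differed by 0.32, 0.32 and 0.41 on the log2 scale, with adjusted p-values of 0.555, 0.542 and 0.555 from the exact permutation test.

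Apoc1, an inhibitor of several lipid-transfer steps and of receptor uptake, was rare in both genotypes. Its nRPKM was 0.189, 0.675 and 1.03 at the lowest, median and highest in PS2APP;Trem2wt mice and 0.356, 0.510 and 1.04 in PS2APP;Trem2ko mice, from 4 to 53 counts per mouse. The genotypes covered the same range. The edgeR difference was -0.03 on the log2 scale (SE 0.40, adjusted p = 0.980), with a 95% interval of the fold from 0.539 to 1.77.

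Apoc2, the lipoprotein lipase cofactor, had 0 counts in 11 of 13 mice, 1 count in PS2APP;Trem2wt replicate 3 and 3 counts in PS2APP;Trem2ko replicate 5. It did not pass the filter and was not tested. A count of 0 allows a level of up to 3 counts, which is 0.0249 CPM in the deepest library and 0.115 CPM in the shallowest, counting error only. Of the exon bases of Apoc2, 79.5% lie within exons of Gm44805, and 167 bases are its own. How the authors' counting treated reads over the shared exons is not given in the sources used here, so the Apoc2 counts are uncertain as a measure of its RNA.

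Clu was the next highest gene after Apoe in every mouse. Its nRPKM was 6.43, 11.8 and 18.3 at the lowest, median and highest in PS2APP;Trem2wt mice and 8.62, 11.99 and 14.0 in PS2APP;Trem2ko mice. The PS2APP;Trem2ko mice all lay inside the PS2APP;Trem2wt range. The means were 11.3 ± 4.0 (SD, n = 7) and 11.4 ± 2.1 (SD, n = 6), and the edgeR difference was 0.02 on the log2 scale (SE 0.20, adjusted p = 0.979), with a 95% interval of the fold from 0.752 to 1.36.

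Apod, the lipocalin, varied widely among mice of the same genotype. It was at 0.300, 0.555 and 4.27 nRPKM at the lowest, median and highest in PS2APP;Trem2wt mice and at 0.287, 0.852 and 1.52 in PS2APP;Trem2ko mice. The PS2APP;Trem2wt replicate 2 alone was at 4.27, the next highest of that genotype being 1.01. The edgeR difference of -0.27 on the log2 scale (SE 0.59, adjusted p = 0.883) turned to 0.64 without that mouse, so no direction is given for Apod. The biological coefficient of variation was 0.715 for Apod, 0.647 for Apoc4 and 0.478 for Apoc1, against 0.255 for Clu and 0.222 for Apoe.

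In nRPKM, the order of levels was Apoe above Clu above the remaining 4 genes in all 13 mice, and Apoc2 was lowest in all 13. Apoc1, Apoc4 and Apod were not separated beyond their spread. Apoc4 was above Apoc1 in every PS2APP;Trem2wt mouse, while Apoc1 was above Apoc4 in 4 of 6 PS2APP;Trem2ko mice. The length behind the authors' nRPKM for Apoc4 was 0.293 of that for Apoe, whereas its GENCODE M21 exon bases are 1.19 times those of Apoe, so the place of Apoc4 in this order depends on the gene model. For Clu the same figures were 0.985 and 1.61.

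Across mice, the levels of Clu and Apod went together. With the genotype means removed, Pearson's r of log2(CPM + 0.1) between Clu and Apod over the 13 mice was 0.80 (permutation p = 0.00241, adjusted p = 0.0241 over 10 pairs), and Spearman's rho was 0.69 (permutation p = 0.0135, adjusted p = 0.0673). The r was 0.77 within PS2APP;Trem2wt, 0.92 within PS2APP;Trem2ko and 0.80 without the 2 mice farthest from the median of Clu. Without PS2APP;Trem2wt replicate 2 it was 0.65 (permutation, adjusted p = 0.192), and in the 10 females it was 0.48 (permutation, adjusted p = 0.533), so the call was lost without that mouse and without the males. Apoc1 and Clu had an r of 0.66 (permutation p = 0.0303, adjusted p = 0.151) and a rho of 0.74 (permutation p = 0.0110, adjusted p = 0.0673). For these, r was 0.49 without the 2 farthest mice. Apoe did not pass with any of the other 4, with r between 0.07 and 0.29 and adjusted permutation p-values between 0.768 and 0.835.

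Markers of other brain cells moved with Clu and Apod among mice, and their part in these levels was not tested. The summed CPM of 7 mural cell and fibroblast markers was 2.23 to 15.2 in PS2APP;Trem2wt mice and 3.16 to 12.2 in PS2APP;Trem2ko mice, with no marker at 0 in all 13 mice and 4 of the 7 at 0 in some. Its r with Apod was 0.83 and with Clu 0.78, over 13 mice with genotype means removed. Without the 2 mice farthest from the median of that sum, these were 0.69 and 0.71. Most of the sum was Rgs5, at a mean of 3.76 of 6.34 CPM in PS2APP;Trem2wt mice and 5.03 of 7.66 in PS2APP;Trem2ko mice. The summed CPM of the 9 astrocyte markers was 387 to 516 in PS2APP;Trem2wt and 455 to 575 in PS2APP;Trem2ko mice, mostly from Slc1a3, and without that gene it was 104 to 205 and 124 to 177. With all 9 astrocyte markers, r was 0.69 with Clu, 0.73 with Apoc1, 0.31 with Apod, 0.06 with Apoe and 0.11 with Apoc4. Without the 2 mice farthest from the median of the marker sum, these were 0.57, 0.49, 0.48, 0.20 and -0.57. Without Slc1a3, a change made after the data were seen, r was 0.81 with Clu and 0.81 with Apoc1. On that shorter list r was 0.48 with Apod, 0.32 with Apoe and 0.02 with Apoc4. Without the 2 farthest mice, it was 0.62 with Clu and 0.74 with Apoc1. The r of Apoc4 with the summed mural cell and fibroblast markers was -0.30. With the summed microglia markers r was -0.18 for Apoc4, -0.39 for Apoe, -0.72 for Apoc1, -0.68 for Clu and -0.61 for Apod. Without the 2 farthest mice, these were -0.50, -0.48, -0.85, -0.53 and -0.26. For the summed oligodendrocyte markers r was 0.57 with Clu and 0.59 with Apoc1, and 0.41 and 0.51 without the 2 farthest mice. For the summed monocyte and neutrophil markers r was 0.64 with Clu and 0.54 with Apod. Without the 2 farthest mice, these were 0.22 and 0.19. For the summed endothelial markers r was 0.75 with Clu, 0.70 with Apod and 0.72 with Apoc1. Without the 2 farthest mice, these were 0.67, 0.62 and 0.62. Most of the endothelial sum was Slc2a1, at a mean of 132 of 180 CPM in PS2APP;Trem2wt mice and 114 of 168 in PS2APP;Trem2ko mice. For the summed neuron markers r was 0.70 with Clu and 0.67 with Apod, and 0.80 and 0.77 without the 2 farthest mice. None of the 9 marker lists held a called gene except Cx3cr1, which was lower, among the microglia markers; DESeq2 also called Slc1a3.

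**Figure D2:**
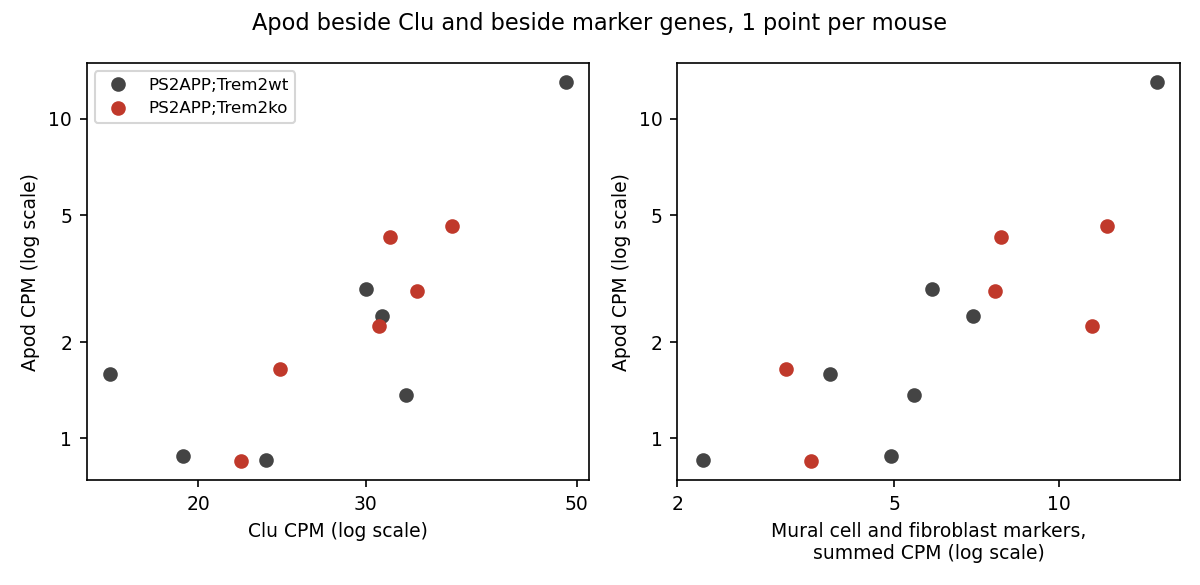
Apod CPM of each mouse against Clu CPM (left) and against the summed CPM of 7 mural cell and fibroblast markers (right), all axes on a log scale, grey for PS2APP;Trem2wt and red for PS2APP;Trem2ko. The point at the upper right of both panels is PS2APP;Trem2wt replicate 2, with 13.1 CPM of Apod; r with the genotype means removed was 0.80 (left) and 0.83 (right).

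The genes whose levels followed each of the 5 tested members most closely over the 13 mice, among 13319 tested genes with a name and a mean of at least 1 CPM, differed from member to member. Apoe went with Slc5a6, Zc3hav1 and Vars (r 0.88, 0.87 and 0.87). Apoc1 went with Ndrg1, Cd320 and Ercc8 (r 0.94, 0.92 and 0.91), and Apoc4 with Ppp1ccb, Gpn1 and Oas1c (r 0.90, 0.90 and 0.88). Clu went with Cpe, Sparcl1 and Adgrb2 (r 0.92, 0.92 and 0.90), and Apod with Pcp4l1, 2310009B15Rik and Cald1 (r 0.94, 0.92 and 0.91). These values describe the highest of many correlations, and none of these 15 genes was called between the genotypes.

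Of the genes that take up or bind ApoE-containing particles, 17 receptors and their regulators were examined and 15 passed the filter. There was 1 lower gene, Lrpap1, and 0 higher, or 6.67% of those tested, against 2.04% of all tested genes. The median log2 fold change over the 15 was -0.13, against 0.00 for all tested genes. Lrpap1, the chaperone that keeps lipoprotein receptors from binding ligands too early, was at 89.5 to 135 nRPKM in PS2APP;Trem2wt and 68.0 to 79.1 in PS2APP;Trem2ko mice. The genotypes did not overlap, a pattern found in 1.22% of tested genes in this direction on TMM-scaled CPM. By edgeR it fell by 0.50 on the log2 scale (SE 0.09, adjusted p = 0.0105). It stayed called with each mouse left out.

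The other 14 were not called. Lrp1, the large receptor that clears many ligands, had 50.4 ± 9.6 nRPKM (SD, n = 7) and 51.2 ± 5.5 (SD, n = 6), with a log2 fold change of 0.02 and a 95% interval from -0.22 to 0.26. Mylip, a ubiquitin ligase that marks lipoprotein receptors for breakdown, had a log2 fold change of 0.14 (adjusted p = 0.415 from edgeR). Cd36, a scavenger receptor, had -0.88 (95% interval -1.78 to 0.01, adjusted p = 0.343 from edgeR), and Vldlr had 0.77 (95% interval -0.27 to 1.81) at no more than 0.139 nRPKM in any mouse. Scarb1, the HDL receptor, had a log2 fold change of -0.42 (adjusted p = 0.0749 from edgeR) and was called by DESeq2 (adjusted p = 0.0117); it is named here after its values were seen.

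**Figure D3:**
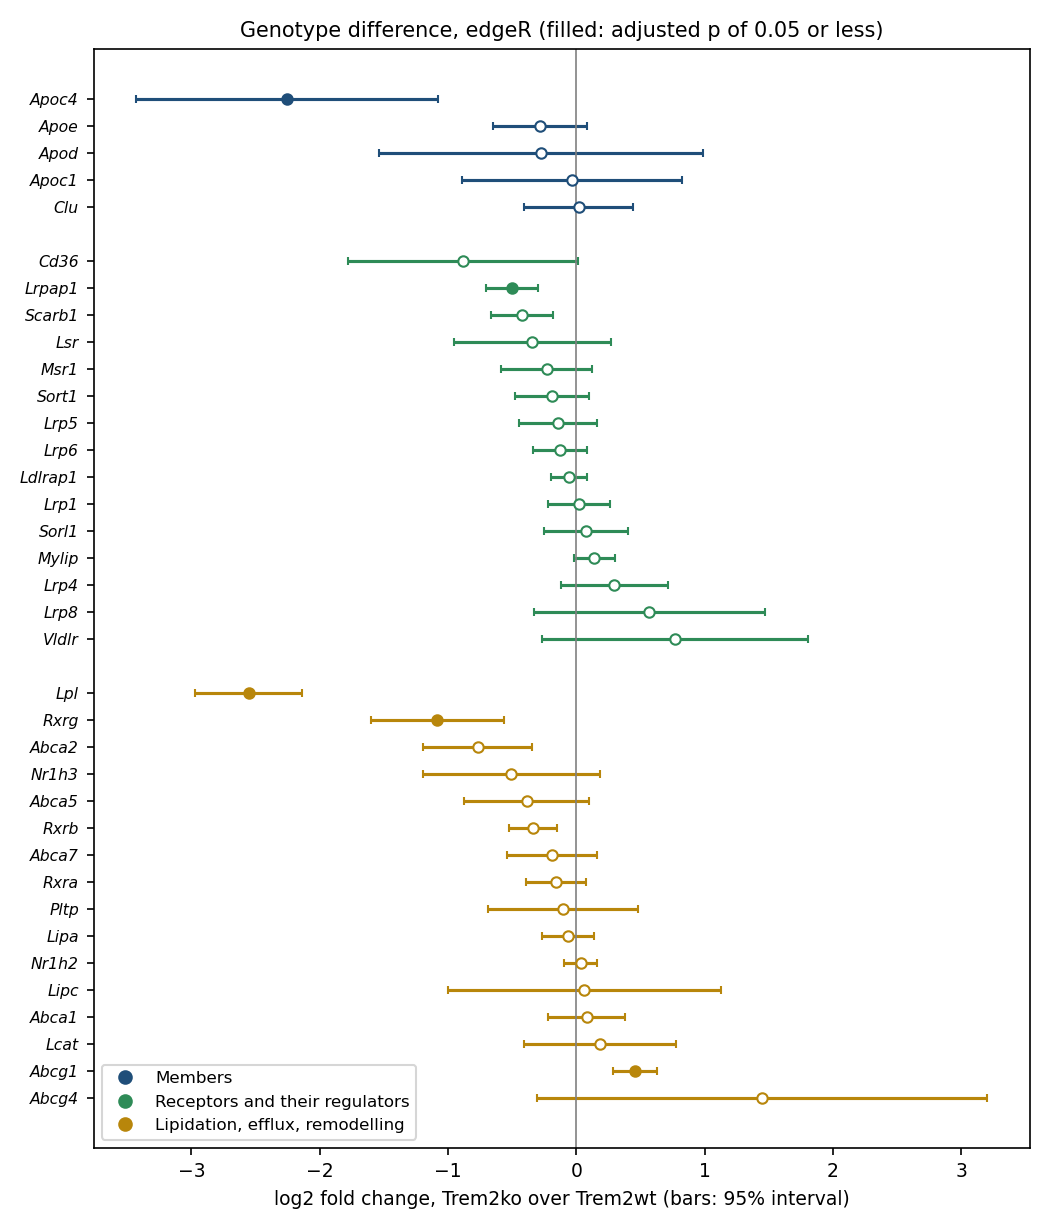
Log2 fold change of PS2APP;Trem2ko over PS2APP;Trem2wt mice (points) with its 95% interval (bars) from edgeR, for the 5 tested members, 15 receptors and regulators, and 16 genes of lipidation, efflux and remodelling. Filled points have an adjusted p of 0.05 or less; Lpl at -2.55 and Apoc4 at -2.26 lie farthest to the left, and Abcg1 at 0.46 is the only filled point above 0.

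Of 18 genes of lipidation, efflux and lipoprotein remodelling in the tables, 16 passed the filter, with 2 lower, 1 higher and 13 not called. That is 18.8% called, against 2.04% of all tested genes, on a list chosen with earlier results of these data known. Lpl, the lipase that ApoC2 activates, was at 62.7 to 113 nRPKM in PS2APP;Trem2wt mice and 9.54 to 19.6 in PS2APP;Trem2ko mice, without overlap. Such a gap in this direction was found in 1.22% of tested genes on TMM-scaled CPM. By edgeR Lpl fell by 2.55 on the log2 scale (SE 0.20, adjusted p = 3.05e-06), a 5.87-fold lower level. Rxrg, a retinoid X receptor, was at 4.10 to 12.9 in PS2APP;Trem2wt mice and 1.79 to 4.12 in PS2APP;Trem2ko mice, with 5 of 6 below every PS2APP;Trem2wt mouse. By edgeR it fell by 1.08 on the log2 scale (SE 0.24, adjusted p = 0.0316), and the adjusted p was above 0.05 in the 5 fits without PS2APP;Trem2ko replicate 3, 4, 5 or 6 or PS2APP;Trem2wt replicate 5, reaching 0.0675.

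Abcg1, a cholesterol transporter, was higher, at 26.7 to 37.0 nRPKM in PS2APP;Trem2ko mice and 21.3 to 25.3 in PS2APP;Trem2wt mice, without overlap. Such a gap in this direction was found in 0.421% of tested genes on TMM-scaled CPM. By edgeR Abcg1 rose by 0.46 on the log2 scale (SE 0.08, adjusted p = 0.00715). Abca1, the first transporter to lipidate ApoE, had 47.9 ± 7.3 nRPKM (SD, n = 7) and 50.8 ± 11.9 (SD, n = 6), with a log2 fold change of 0.08 (95% interval -0.22 to 0.38). Abcg4 had 1.45 (95% interval -0.30 to 3.20) at a mean of 0.0271 nRPKM in PS2APP;Trem2wt mice, and Lipa, the lysosomal acid lipase, had -0.07 (95% interval -0.27 to 0.14). The other ABC transporters on the list, Abca2, Abca5 and Abca7, named here after their values were seen, had -0.77 (95% interval -1.19 to -0.35, adjusted p = 0.0609 from edgeR), -0.39 (95% interval -0.87 to 0.10) and -0.19 (95% interval -0.54 to 0.16).

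**Figure D4:**
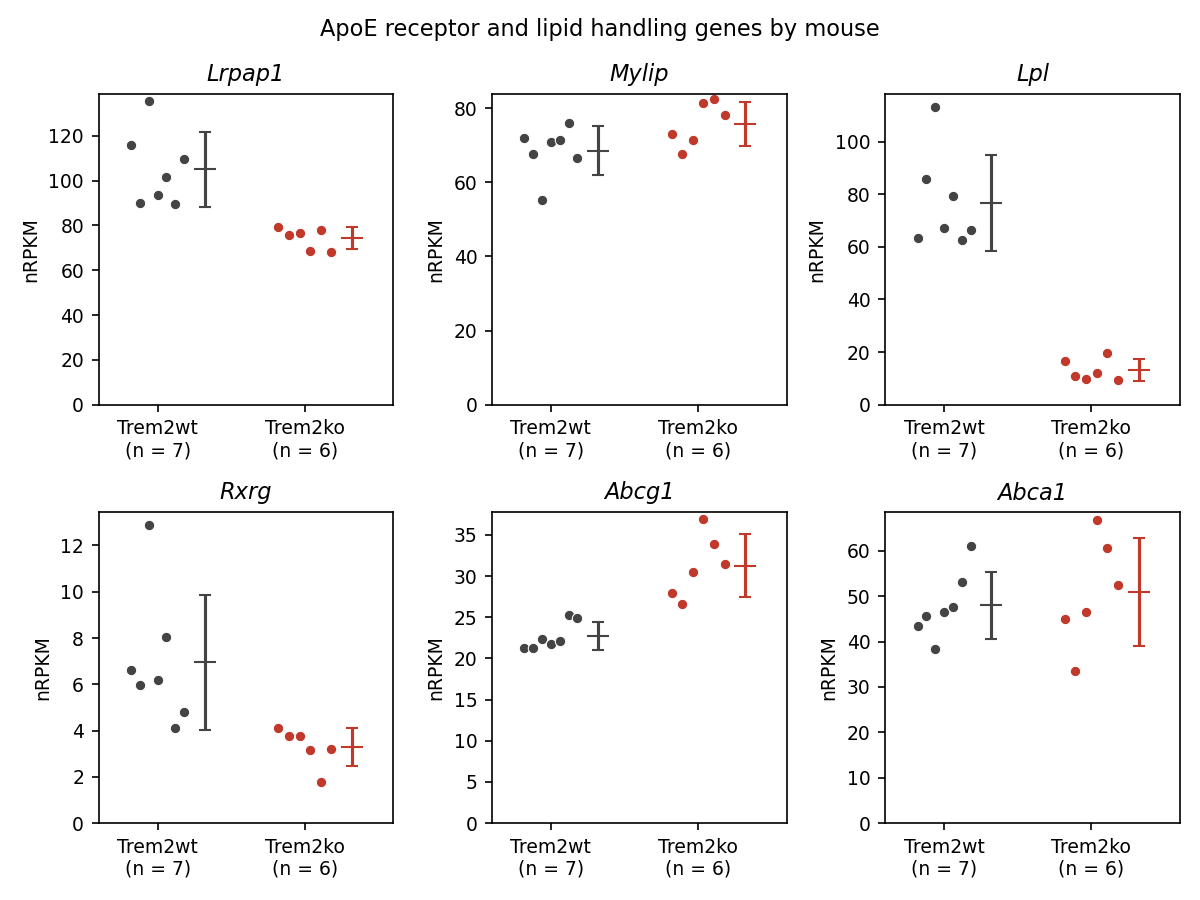
Level of 6 ApoE receptor and lipid handling genes as nRPKM (linear axes from 0), 1 point per mouse, grey for the 7 PS2APP;Trem2wt and red for the 6 PS2APP;Trem2ko mice, with bars for mean and SD. Lrpap1, Lpl and Abcg1 show no overlap between the genotypes, Rxrg overlaps in 1 PS2APP;Trem2ko mouse at 4.12, and Mylip and Abca1 overlap.

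Of 27 other apolipoprotein genes, 4 passed the filter (Apob, Apool, Apobr and Apold1). By edgeR, voom+limma or DESeq2 0 of them were called, and 0 had an unadjusted p under 0.05 in edgeR. Apool, a mitochondrial protein of the apolipoprotein O family, and Apobr, an ApoB receptor, were the highest at 6.36 ± 0.78 and 4.05 ± 0.50 nRPKM (SD, n = 7) in PS2APP;Trem2wt mice, with log2 fold changes of 0.00 and -0.05. Apob and Apold1 had 1.05 and 0.75 with 95% intervals from -0.36 to 2.47 and from -0.53 to 2.02.

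Within 100 kb of the Apoe cluster, 14 genes other than the members were listed and 9 passed the filter. By edgeR, voom+limma or DESeq2 0 of them were called, and 0 had an unadjusted p under 0.05 in edgeR, with a median log2 fold change of -0.07. Clptm1 and Gemin7, the highest of these, had log2 fold changes of -0.07 and -0.12, and Bcam and Gm26890, with the widest changes, had -0.55 (95% interval -2.09 to 0.99) and 0.38 (95% interval -0.19 to 0.96). Near Clu, 1 of 5 genes within 100 kb passed (Scara3, log2 fold change -0.24), and near Apod 2 of 4 (Ppp1r2 and Acap2, -0.11 in each), again with 0 called by edgeR, voom+limma or DESeq2 and 0 at an unadjusted p under 0.05 in edgeR. Apoc4 was the only called gene of the region.

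**Figure D5:**
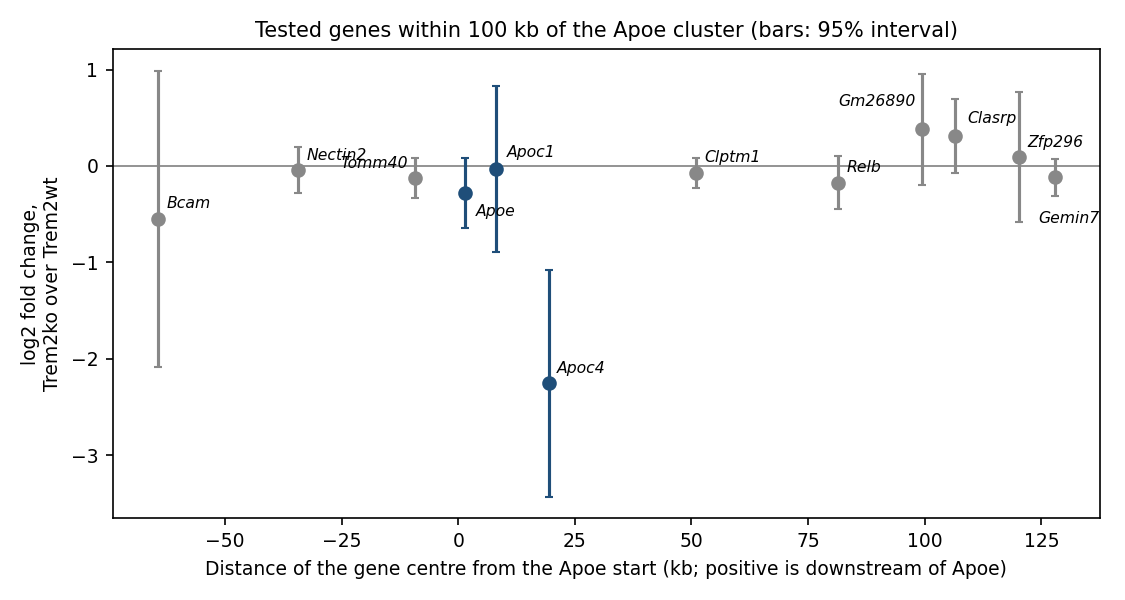
Log2 fold change of PS2APP;Trem2ko over PS2APP;Trem2wt mice with 95% intervals (bars) for tested genes in and within 100 kb of the Apoe cluster, against the distance of each gene's centre from the Apoe start in kb, positive in the direction of Apoe transcription. Blue marks Apoe, Apoc1 and Apoc4 and grey the 9 neighbours; Apoc4 at -2.26 is the only gene whose interval does not include 0.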

How the data were processed

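RNA of sorted brain myeloid cells from 7 PS2APP;Trem2wt and 6 PS2APP;Trem2ko mice was made into libraries from 1 to 5 ng with SMART-seq v4 and sequenced as single-end 50-base reads. The authors discarded adapters, low-quality sequences and rRNA reads, aligned to GRCm38 with GSNAP and deposited, per mouse, raw counts per gene. They also deposited nRPKM, an RPKM scaled by a DESeq-type size factor. Annotation version, strand use and the handling of overlapping genes are not given in the sources used here. RPKM values were used for levels, and counts for tests.

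Of 52636 Ensembl identifiers, 52489 were named from GENCODE M21. Counts were tested with edgeR 4.0.16 (R 4.3.3): filterByExpr by genotype, TMM, glmQLFit and glmQLFTest, no covariate, all 13 mice, in 1 fit. The SE is the log2 fold change over the square root of F. Ratios, shares and correlations were computed in Python 3.11.15 with scipy 1.17.1, correlations with 100000 resamples within genotype. Fits were repeated by DESeq2 1.42.0 and by voom+limma (limma 3.58.1), with RLE scaling, other filters, sex, females only, limma on log2(nRPKM + 0.1) or + 1, and leaving out each mouse. The relations without PS2APP;Trem2wt replicate 2 and the astrocyte list without Slc1a3 were added after the data were seen. The edgeR fit and the exact permutation test were tried on simulated data with known changes. No 2 libraries of a genotype agreed within sampling noise (36 pairs, lowest chi-square per degree of freedom 17.5).

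The members, lists and tests were chosen with earlier results of these data known. The genes named are the members and, from each list, those called, the 2 highest by mean nRPKM and the 2 with the largest change; others are named where stated. Cetp, on the lipidation list, was not analysed here. Apoc2 had too many 0 counts for a ratio to Apoe. Lrp1 was named for its part in ApoE uptake. 1 gene of the receptor list is not reported here.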

Additional observations from a re-analysis of the deposited data

Results flagged for a closer look

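Among the 28 sets of values examined, the levels of the tested members and called partner genes, the ratios to Apoe and the share of counts in each genotype, 1 held a mouse far from the rest by Dixon's criterion, which chance meets in about 1 in 20 sets. Apod was at 4.27 nRPKM in PS2APP;Trem2wt replicate 2, with a gap to the next mouse of 0.822 of the whole range. The same mouse had the highest Clu level and the highest summed mural cell and fibroblast markers (15.2 CPM), and the part of these in the Apod level was not tested.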

How the results depend on the processing

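Apoe, Apoc1, Clu and Apod had adjusted p-values above 0.05 under every alternative, except that DESeq2 gave none for Apoc1. For Apoc4 the log2 fold change was -2.25 with no filter, -2.30 with sex as a covariate and -2.20 in females only, each with an adjusted p above 0.05, so that 0 members were called there, and -1.09 on log2(nRPKM + 1), where its adjusted p was 0.0408. Its adjusted p was lowest with DESeq2, at 0.00122. The sign of Apoc1 turned in females only (0.037) and on log2(nRPKM + 0.1) (0.044). Apod turned under voom+limma (0.14), the sex covariate (0.17), females only (0.69), log2(nRPKM + 0.1) (0.12) and log2(nRPKM + 1) (0.0026). With each mouse left out, log2 fold changes ranged from -0.35 to -0.13 for Apoe, -0.28 to 0.14 for Apoc1, -2.63 to -1.84 for Apoc4, -0.081 to 0.17 for Clu and -0.48 to 0.64 for Apod, members called from 0 to 1 and lipidation genes called from 2 to 5 (5 without PS2APP;Trem2wt replicate 1). DESeq2 called 5 lipidation genes, adding Abca2 and Rxrb, and 2 receptor genes, adding Scarb1; with each mouse left out, from 1 to 2 receptor genes were called. The Apoc4 to Apoe ratio in females was -2.19 (adjusted p = 0.0635, exact permutation test), and the share of the members without Apoe differed by 0.039. Relations turned in females for Apoe with Apod (-0.093), Apoc1 with Apod (-0.11) and Apoc4 with Clu (0.16), and without PS2APP;Trem2wt replicate 2 for Apoc4 with Clu (0.077); Clu with Apod was 0.48 in females and 0.65 without that mouse.

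Over all genes, 262 were lower and 86 higher in the edgeR fit, 526 and 325 with DESeq2, 222 and 53 with no filter and 173 and 79 in females only; with each mouse left out, from 191 to 284 were lower and from 42 to 107 higher. Causes of these changes were not tested. No paired analysis was possible because the labels do not say which mice form a pair, although by the study's methods pairs of 1 mouse of each genotype were generally handled side by side from perfusion to sorting, and every fit and permutation here leaves that pairing out. Depth limits Apoc1, Apoc2 and Apoc4, which rest on few counts.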
